A study of Mus musculus with 4 samples.

Results

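Polyamines are small positively charged molecules that bind nucleic acids and are needed for cell growth, and cells hold their amounts within narrow limits through synthesis, breakdown and uptake. Ornithine decarboxylase, encoded by Odc1, makes putrescine, which Srm and Sms extend to spermidine and spermine with groups supplied by the decarboxylase encoded by Amd1, while Sat1 starts the return path by acetylating spermidine and spermine. The antizymes Oaz1 and Oaz2 bind ornithine decarboxylase and send it to the proteasome, and Azin1, an inactive relative of the enzyme, binds antizyme and so protects ornithine decarboxylase. The transcripts of these 8 genes, Oaz1, Oaz2, Odc1, Azin1, Srm, Sms, Sat1 and Amd1, are described here out of 55453 genes of the count matrices. They were taken by symbol and were selected on the difference of Oaz1 between the morpholinos, which had been seen in these counts, so that their differences between morpholinos are given as a description without a test.

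The study injected mouse embryos with a morpholino, a synthetic nucleic acid analogue that keeps a complementary RNA from being translated or spliced, which was either directed at NKX1-2, a homeobox transcription factor, or a control. The title of the study names NKX1-2 as a Wnt-dependent regulator of development before implantation. Wells were taken from morulae, compact balls of cells, and from blastocysts, in which an outer trophectoderm encloses the inner cell mass, on 2 plates per stage with 48 control and 48 NKX1-2 wells each. The 4 groups were therefore morula with control morpholino, morula with NKX1-2 morpholino, blastocyst with control morpholino and blastocyst with NKX1-2 morpholino, all of them injected, with no uninjected group, and the strain, the morpholino dose and the age in days were not given in the labels. No label tied a well to an embryo, so that wells were not replicates: counts were summed over the wells of a plate that received the same morpholino, which gave 8 sums and n = 2 plates per group. The p-values measure only the spread between these plates, which may be technical.

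Wells counted only where at least 2000 genes were detected, which removed 16 of 384, and the sums then held 1084312 to 2398605 counts. Nkx1-2 itself had 0 counts in all 8 sums, which at 3 counts of the total allows a level of up to 1.25 to 2.77 CPM, that is, counts scaled to a common library size, depending on the sum, so the labels of the morpholinos could not be checked on the targeted transcript. The summed level of 10 trophectoderm markers was 284.5 to 301.9 CPM in the morula sums and 661.2 to 868.4 CPM in the blastocyst sums, with Gata2 and Elf5 at 0 to 2 counts per group. Within this list Tfap2c went the other way, at 171.5 to 213.7 CPM in the morula and 80.7 to 95.3 CPM in the blastocyst. The summed level of 8 inner cell mass markers was 1082 to 1300 CPM in the morula sums and 523.7 to 599 CPM in the blastocyst sums. Sox15 alone gave 572.6 to 659.9 CPM of the morula and 187.8 to 339.6 CPM of the blastocyst sums. Nanog went the other way, at 45.9 to 60.4 CPM in the morula and 72.8 to 138.6 CPM in the blastocyst. Sox2, on 2 to 25 counts per sum, did not fall either, at 1.25 to 9.58 CPM in the morula and 2.11 to 12.1 CPM in the blastocyst. The summed primitive endoderm markers were at 260.6 to 299.9 CPM in the morula and 126.5 to 196.9 CPM in the blastocyst sums, with Col4a1 and Pdgfra going the other way. Markers of the oocyte and polar body were at 36.0 to 46.1 CPM in the morula and 9.49 to 24.2 CPM in the blastocyst sums. Markers of granulosa cells reached at most 3.79 CPM and markers of fibroblasts at most 5.27 CPM, with Inha, Fshr, Dcn and Lum at 0 in every sum. The same 96 well barcodes, with the same morpholino for each, were used in every plate, so the set of barcodes and the morpholino cannot be told apart.

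Antizyme mRNA carries a stop codon at the end of a short first reading frame, which ribosomes pass by shifting one base forward when polyamines are plentiful, and this site sets antizymes apart from the other members. It is shown for both antizymes and for the Oaz1 pseudogene, and it covers only a short stretch of their transcripts. The bases are from the GENCODE M21 transcripts of GRCm38, with the stop codon in capitals and 15 bases on either side.
Oaz1: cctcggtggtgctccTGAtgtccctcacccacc
Oaz2: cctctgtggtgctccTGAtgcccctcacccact
Oaz1-ps: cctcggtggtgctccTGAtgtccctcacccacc
The Oaz1 site lies at chr10:80828280-80828312 on the plus strand, the Oaz2 site at chr9:65686257-65686289 on the plus strand and the Oaz1-ps site at chr17:17345919-17345951 on the minus strand. Oaz2 differed from Oaz1 at 3 of 33 bases. Oaz1-ps, a processed pseudogene, differed at 0 bases, and reads from this stretch cannot be assigned to one or the other.

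All members are protein-coding genes in GRCm38. The antizyme genes Oaz1 (ENSMUSG00000035242, chr10:80826656-80829290) and Oaz2 (ENSMUSG00000040652, chr9:65668001-65690300) are on the plus strand, as is Odc1 (ENSMUSG00000011179, chr12:17544794-17551505). Azin1 (ENSMUSG00000037458) spans chr15:38487427-38519266 on the minus strand and Srm (ENSMUSG00000006442) spans chr4:148591503-148594993 on the plus strand. Sms (ENSMUSG00000071708, chrX:157443855-157492287) and Sat1 (ENSMUSG00000025283, chrX:155213132-155216449) are both X-linked and on the minus strand. Amd1 (ENSMUSG00000075232) spans chr10:40287458-40302186 on the minus strand. All members share some of their sequence with other genes, and its uniqueness differed widely. Of the 31-base stretches of its transcripts, Amd1 shared 82.8% with another gene, mostly Amd2, an intact gene copy elsewhere on chromosome 10. Odc1 shared 31.3%, Oaz1 24.0%, Sms 18.8% and Oaz2 12.1%, in each case mostly with processed pseudogenes, and Srm, Sat1 and Azin1 shared 9.41%, 6.92% and 5.28%. The Azin1 locus also overlaps an antisense gene, Gm49077, over 358 exonic bases, and whether strand was used in the counting is not given in the sources used here.

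The members fell into an abundant and a scarce set. Per kilobase of exonic sequence, Sat1 was the highest of the 8 in every group, from 462.0 to 639.8 CPM per kilobase as a mean of 2 plates. Odc1, Srm and Oaz1 followed, between 164.6 and 306.4 CPM per kilobase, and Sms, Amd1, Oaz2 and Azin1 lay between 11.8 and 36.6. The abundant and the scarce sets did not overlap in any sum. In control morulae the order was Sat1, Odc1, Srm, Oaz1, Sms, Oaz2, Amd1 and Azin1. Srm and Oaz1 stood there at 200.2 ± 24.6 and 164.6 ± 18.4 CPM per kilobase (SD, n = 2), and the lower Srm plate, at 182.8, lay just above the higher Oaz1 plate, at 177.6. Amd1 and Azin1 likewise lay within their spread of each other, at 20.7 ± 1.02 and 16.2 ± 4.74 CPM per kilobase. In NKX1-2 morulae Oaz1 was above Srm, at 244.4 ± 8.18 against 214.1 ± 5.88 CPM per kilobase without overlap, and the rest of the order was the same. In control blastocysts Odc1, Oaz1 and Srm stood at 204.0 ± 29.9, 191.2 ± 11.0 and 180.7 ± 0.975 CPM per kilobase, with overlapping ranges of mean and SD. The plates of Odc1 and Oaz1 overlapped. Both Srm plates, at 180.0 and 181.4, lay just below the lower Odc1 plate, at 182.8, and the lower Oaz1 plate, at 183.5. The order there ended with Amd1, Sms, Azin1 and Oaz2, each of which overlapped with the next. In NKX1-2 blastocysts Oaz1 was the second of the 8 at 295.7 ± 38.2 CPM per kilobase, above Srm at 223.3 ± 17.1 and Odc1 at 201.5 ± 5.28, with no overlap between the plates of Oaz1 and those of Srm or Odc1. Sms, Amd1, Azin1 and Oaz2 followed, and the first 2 of them overlapped.

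**Figure D1:**
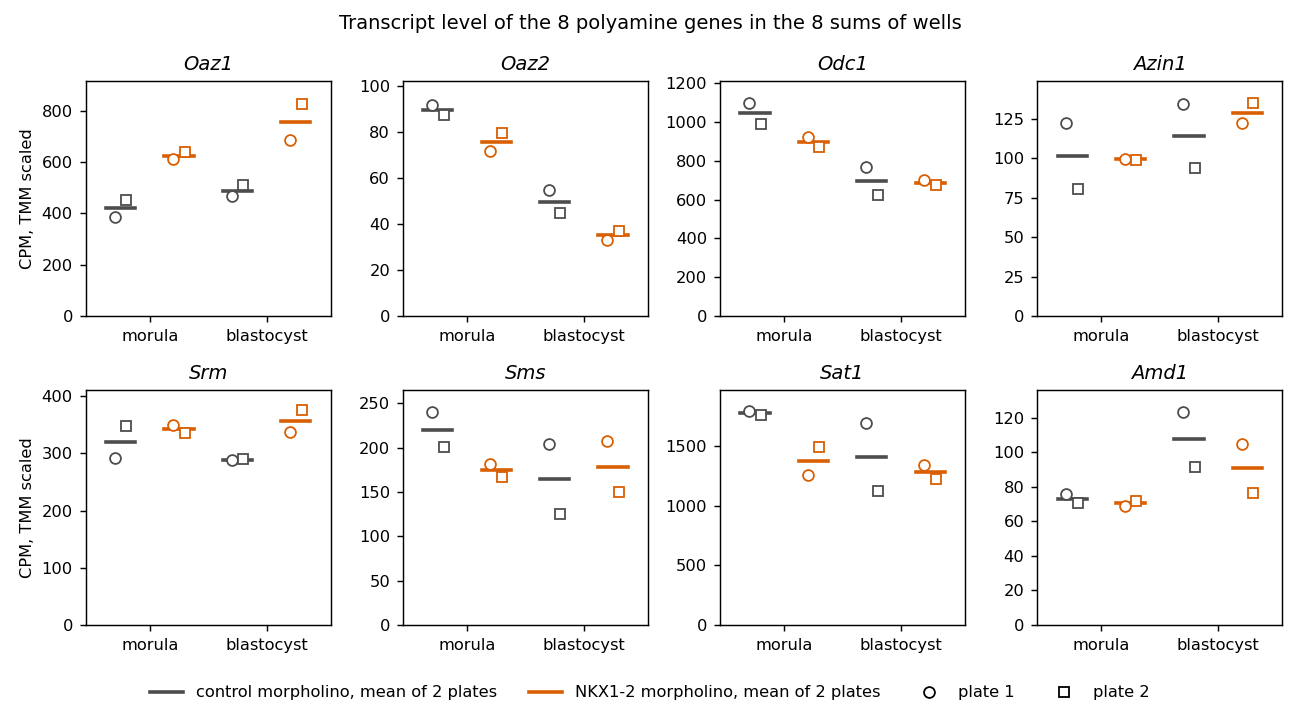
Level of each member in CPM scaled by the trimmed mean of M values (TMM) (vertical axis, linear, starting at 0) in the 4 groups of stage and morpholino. Circles and squares are plates 1 and 2, and bars are means of 2 plates. Both NKX1-2 plates lie above both control plates for Oaz1 at each stage, and Oaz2 and Odc1 lie lower in the blastocyst than in the morula.

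Oaz1, the main antizyme, was higher in the wells with the NKX1-2 morpholino in all 4 plates. In morula plate 1 it stood at 387.7 CPM in the control sum and 610.3 CPM in the NKX1-2 sum, from 931 and 1616 counts. In morula plate 2 the levels were 454.2 and 639.9 CPM, from 1009 and 1670 counts. The lowest NKX1-2 value of the morula was thus above the highest control value. In blastocyst plate 1 Oaz1 stood at 469.3 CPM in the control sum and 687.1 CPM in the NKX1-2 sum, from 445 and 887 counts. In blastocyst plate 2 the levels were 509.0 and 825.4 CPM, from 672 and 1248 counts. The groups did not overlap in the blastocyst either, and the NKX1-2 sums of the morula lay above the control sums of both stages.

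The difference in log2 CPM between the morpholinos within a plate was 0.65 and 0.50 in the morula and 0.55 and 0.70 in the blastocyst. The fit of all 8 sums gave Oaz1 a 1.49-fold higher level in the morula and a 1.54-fold higher level in the blastocyst, or 0.58 and 0.63 on the log2 scale. Since this contrast chose the members, no test of them is given. The calls over all genes are from the edgeR quasi-likelihood fit. Over all 10873 genes tested, 0.276% were called higher and 0.276% lower in the morula, and 0.386% were called higher and 0.34% lower in the blastocyst. Between 6.98% and 18.6% of these genes had an upward difference within a plate at least as large as that of Oaz1, which includes genes with few counts.

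The difference was spread over the wells of each plate. Oaz1 had a count in all 368 wells. In morula plate 1 the control wells ran from 144.3 to 788.9 CPM of their own total, with a median of 448.0, and the NKX1-2 wells from 368.7 to 1391 CPM, with a median of 673.7. The medians of control and NKX1-2 wells were 470.5 and 676.0 CPM in morula plate 2, and 393.2 and 623.3 CPM in blastocyst plate 1. In blastocyst plate 2 they were 451.1 and 755.7 CPM. The distributions overlapped in every plate, but 46 of 48, 43 of 47, 44 of 47 and 41 of 44 NKX1-2 wells lay above the control median of their plate. No sum rested on 1 well, since the well with the most Oaz1 counts held between 4.17% and 5.33% of them. Across plates, the Oaz1 levels of wells with the same barcode had Spearman correlations from -0.323 to 0.207 within a morpholino, a description over 38 to 48 barcodes.

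**Figure D2:**
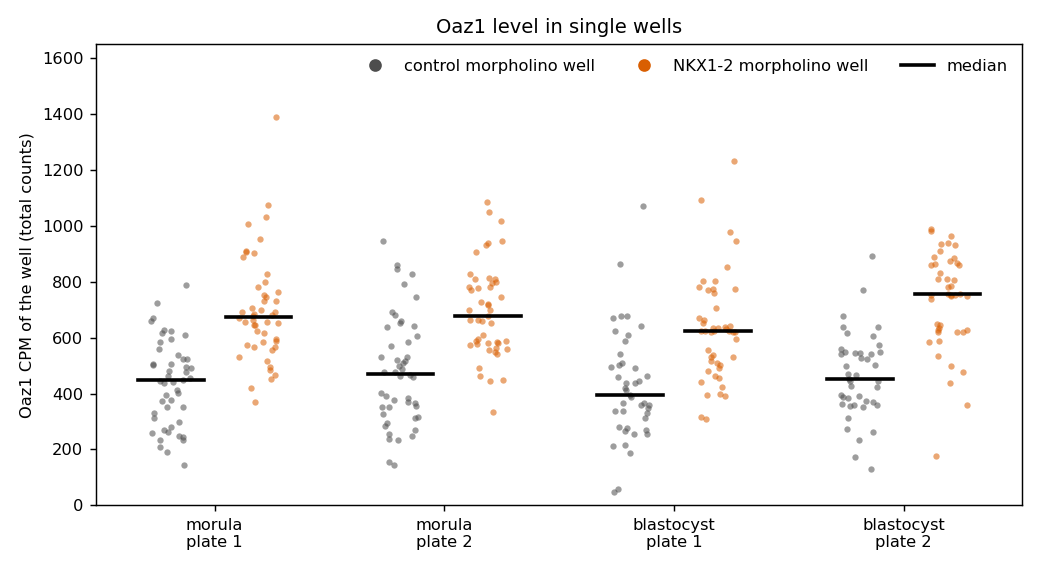
Oaz1 CPM of the total counts of a well (vertical axis, linear) in control and NKX1-2 wells of the 4 plates. Each point is a well and each bar a median; in every plate the NKX1-2 median, from 623.3 to 755.7 CPM, lies above the control median, from 393.2 to 470.5 CPM.

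The pseudogene Oaz1-ps was likewise higher with the NKX1-2 morpholino in every plate. It shares 95.3% of its 31-base stretches with Oaz1, and its log2 difference between morpholinos was 0.83 and 0.69 at the morula stage. At the blastocyst stage it was 0.22 in plate 1 and 0.72 in plate 2. Its counts in control and NKX1-2 sums were 140 and 276 in morula plate 1 and 152 and 290 in morula plate 2. In the blastocyst they were 32 and 51 in plate 1 and 55 and 105 in plate 2. With the counts of Oaz1-ps added to Oaz1, an alternative chosen after the data had been seen, the log2 difference was 0.60 in the morula and 0.62 in the blastocyst. Reads of the pseudogene and reads of Oaz1 placed at its locus cannot be told apart in these counts.

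The sex markers of the wells were not balanced between the groups. Wells with Xist and without a Y-linked count made up 25 of 48 control and 10 of 48 NKX1-2 wells in morula plate 1, but 15 of 43 and 35 of 47 in blastocyst plate 1. Both Xist and Y-linked counts were present in 19 of 43 control and 22 of 44 NKX1-2 wells of blastocyst plate 2. In the other plates 4 to 8 wells per sum had both, and these markers do not give the sex of such wells. Within wells with Xist and no Y-linked count alone, the log2 difference of Oaz1 was 0.68 in the morula and 0.73 in the blastocyst. In the 5 sums with at least 10 wells of each kind, the ratio of Oaz1 between wells with Xist only and wells with Y-linked counts only was 0.859 to 1.05.

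Oaz2, the second antizyme, was lower in the NKX1-2 sum of every plate. Its levels in control and NKX1-2 sums were 91.6 and 71.8 CPM in morula plate 1, and 87.3 and 79.7 CPM in morula plate 2. In the blastocyst they were 54.8 and 33.3 CPM in plate 1, and 44.7 and 37.0 CPM in plate 2. The groups did not overlap at either stage, but the blastocyst sums rested on 43 to 59 counts. The log2 differences within plates were -0.35, -0.13, -0.70 and -0.26. The antizymes thus differed in direction between the morpholinos, with Oaz1 higher and Oaz2 lower in each of 4 plates, and Oaz2 was the less abundant of the pair per kilobase in every sum.

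Odc1, the enzyme that antizymes bind, showed a smaller difference between morpholinos. It stood at 1096 and 920.8 CPM in the control and NKX1-2 sums of morula plate 1, and at 990.4 and 869.5 CPM in plate 2. In the blastocyst it stood at 766.6 and 698.7 CPM in plate 1, and at 622.6 and 673.3 CPM in plate 2. The NKX1-2 sums were below both control sums in the morula and lay between the control sums in the blastocyst, with log2 differences of -0.25, -0.19, -0.13 and 0.11. The ratio of Oaz1 to Odc1 per kilobase was accordingly higher in the NKX1-2 sum of each plate. The size of this ratio depends on the lengths used, as given above, while its direction between the morpholinos does not. In the morula it was 0.471 and 0.611 in the control sums of plates 1 and 2 and 0.882 and 0.980 in the NKX1-2 sums. In the blastocyst it was 0.815 and 1.09 in the control sums and 1.31 and 1.63 in the NKX1-2 sums.

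Azin1, the antizyme inhibitor, took opposite directions in the plates of each stage, with log2 differences of -0.29 and 0.30 in the morula and -0.13 and 0.52 in the blastocyst. Its control sums differed between the plates, at 122.0 and 80.1 CPM in the morula and 133.9 and 93.9 CPM in the blastocyst, while its NKX1-2 sums lay at 99.3 and 98.9 CPM and at 122.4 and 134.9 CPM. The plates of one group thus differed by as much as the groups did.

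Among the synthases, Srm, which makes spermidine, had log2 differences of 0.26 and -0.05 in the morula and 0.23 and 0.37 in the blastocyst. Its blastocyst sums did not overlap, at 287.9 and 290.1 CPM with the control and 337.8 and 376.3 CPM with the NKX1-2 morpholino, whereas both NKX1-2 sums of the morula, 349.0 and 335.7 CPM, were near its higher control sum of 348.0 CPM. Within wells with Xist and no Y-linked count, the log2 difference of Srm in the blastocyst turned to -0.19, against 0.31 with all wells. That of Azin1 in the blastocyst turned likewise, from 0.20 to -0.21. Both values rest in part on only 6 control wells of this kind in blastocyst plate 2. In these Srm stood at 477.1 CPM of total counts, against 286.6 CPM in the 15 such control wells of plate 1. Amd1, the decarboxylase that supplies the aminopropyl groups, had log2 differences of -0.14 and 0.03 in the morula and -0.24 and -0.25 in the blastocyst, on 116 to 188 counts per sum. Its groups overlapped at both stages, and its morula difference of -0.06 turned to 0.25 within wells with Xist and no Y-linked count.

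Sms, which makes spermine, and Sat1, which acetylates both polyamines, are X-linked and differed with the sex markers of the wells. Sms stood at 239.9 and 182.0 CPM in the control and NKX1-2 sums of morula plate 1, and at 200.3 and 167.5 CPM in plate 2, with no overlap between the groups. In the blastocyst it stood at 204.6 and 207.6 CPM in plate 1 and at 125.0 and 149.5 CPM in plate 2, with overlapping groups. Sat1 stood at 1790 and 1256 CPM in morula plate 1 and at 1760 and 1494 CPM in plate 2, again without overlap. In the blastocyst Sat1 stood at 1695 and 1340 CPM in plate 1, and at 1118 and 1223 CPM in plate 2, and the NKX1-2 sums lay between the control sums. The control sum of blastocyst plate 2 was the lowest of the 8 for both X-linked genes. There 6 of 43 control wells had Xist without a Y-linked count, against 20 of 44 NKX1-2 wells. A further 19 of the control and 22 of the NKX1-2 wells had both Xist and Y-linked counts.

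Within the sums that had at least 10 wells of each kind, Sms was higher in wells with Xist only than in wells with Y-linked counts only in 5 of 5 sums. The ratio was 1.55 and 2.11 in the control and NKX1-2 sums of morula plate 1, 2.11 and 2.33 in those of morula plate 2, and 3.16 in the control sum of blastocyst plate 1. Sat1 had ratios of 1.31 to 2.23 and was likewise above 1 in 5 of 5 sums. The autosomal members had median ratios of 0.955 to 1.20, although Azin1 was also above 1 in 5 of 5 sums, between 1.01 and 1.71. With only the wells that had Xist and no Y-linked count, the log2 difference of Sms between morpholinos in the morula was -0.01, against -0.33 with all wells. That of Sat1 in the morula was -0.20, against -0.37. In the blastocyst the same wells gave Sat1 a larger difference, -0.36 against -0.10, and Sms -0.06 against 0.14.

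**Figure D3:**
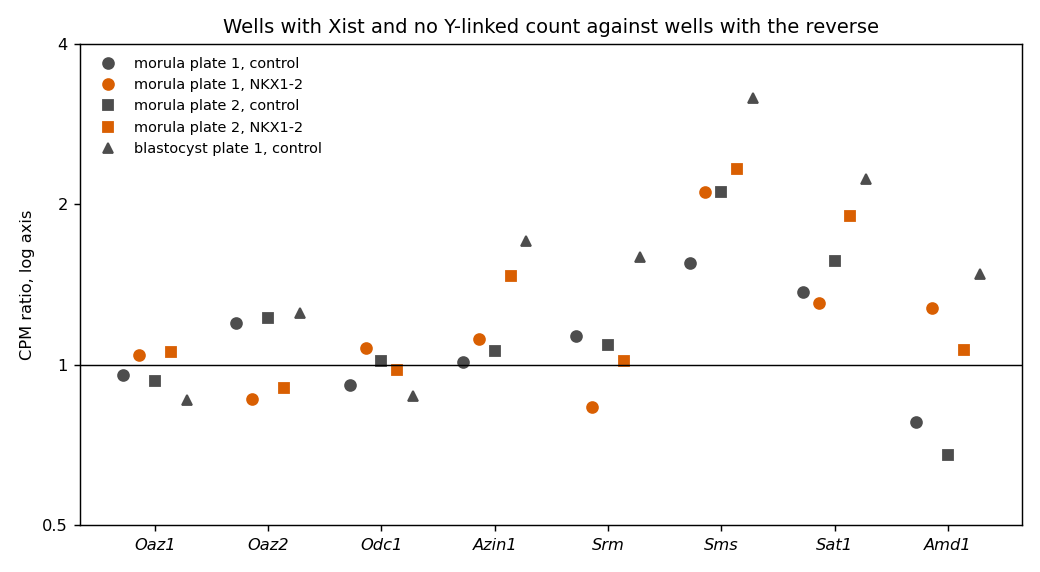
Ratio of the summed level (log axis) of each member in wells with Xist and no Y-linked count to that in wells with a Y-linked count and no Xist, for the 5 sums with at least 10 wells of each kind. All points of the X-linked Sms and Sat1 lie above 1, from 1.31 to 3.16, while the Oaz1 points lie between 0.859 and 1.05.

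**Figure D4:**
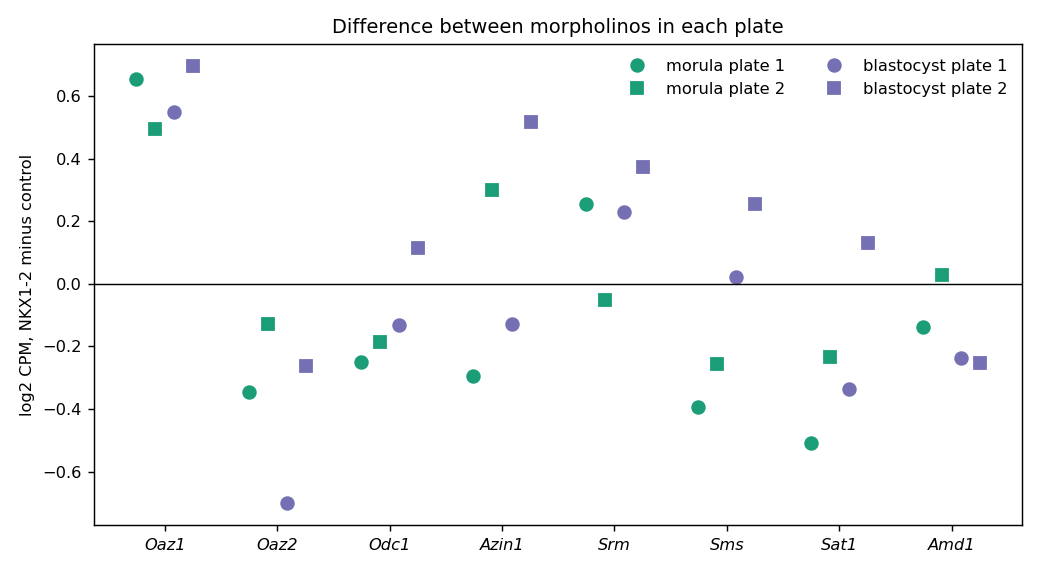
Difference in log2 CPM between the NKX1-2 and the control sum of the same plate for each member. Points are plates; Oaz1 lies between 0.50 and 0.70 in all 4 plates, Oaz2 lies below 0 in all 4, and the other members lie on both sides of 0.

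The comparison of the stages was not used to choose the members, and it was tested. In the control wells Odc1 and Oaz2 fell from the morula to the blastocyst and 0 members rose. Oaz2 fell by 0.85 on the log2 scale with an SE of 0.243 (adjusted p = 0.00723, edgeR quasi-likelihood test), from 89.5 ± 3.04 to 49.8 ± 7.18 CPM (SD, n = 2). Odc1 fell by 0.58 (SE 0.152, adjusted p = 0.00374, edgeR), from 1043 ± 74.8 to 694.6 ± 101.9 CPM. The groups did not overlap for either gene. These 2 of 8 members stood against a background in which 20.1% of 9577 genes rose and 21.6% fell, so the share of members that fell was near that of all genes.

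In the NKX1-2 wells the same genes, Oaz2 and Odc1, fell. Oaz2 fell by 1.10 (SE 0.226, adjusted p = 0.000679, edgeR), from 75.7 ± 5.62 to 35.2 ± 2.64 CPM. Odc1 fell by 0.39 (SE 0.120, adjusted p = 0.0135, edgeR), from 895.1 ± 36.3 to 686.0 ± 17.97 CPM. Over all 10221 genes tested in these wells, 21.9% rose and 24% fell. Each stage had its own plates, so that stage and plate cannot be told apart beyond the spread of the 2 plates. In bulk sums such as these, fewer cells of a type and less RNA per cell cannot be told apart either. The summed trophectoderm, inner cell mass and primitive endoderm markers shifted with the stage as given above. Tfap2c, Nanog, Col4a1 and Pdgfra went against their lists, and Sox2 did not fall with its list. The part of such shifts in the change of Oaz2 and Odc1 was not tested.

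The calls for Oaz2 and Odc1 depended on single plates and, in part, on the tool and the wells used. In the control wells the call of Oaz2 was lost without blastocyst plate 2, at -0.68 (adjusted p = 0.0527, edgeR), and without morula plate 1, at -0.84 (adjusted p = 0.0791, edgeR). The call of Odc1 was lost there without blastocyst plate 2, at -0.42 (adjusted p = 0.0621, edgeR). In the NKX1-2 wells Odc1 was not called without blastocyst plate 1, at -0.40 (adjusted p = 0.0821, edgeR), nor without blastocyst plate 2, at -0.36 (adjusted p = 0.0915, edgeR). Oaz2 was called in each of these fits of the NKX1-2 wells. Both genes were lower in the blastocyst in all fits that left out a plate. The call of Odc1 in the NKX1-2 wells was also lost with DESeq2 (adjusted p = 0.0502) and in edgeR with only the wells that had Xist and no Y-linked count, at -0.31 (adjusted p = 0.13). With those wells the call of Oaz2 in the control wells was lost as well, at -0.89 (adjusted p = 0.067, edgeR).

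For the other 6 members no change between the stages passed the test. In the control and NKX1-2 wells Oaz1 had log2 fold changes of 0.23 (SE 0.165) and 0.27 (SE 0.129), with adjusted p = 0.286 and 0.0928 in edgeR. Amd1 had 0.55 (SE 0.228) and 0.36 (SE 0.204), with adjusted p = 0.0566 and 0.164. Azin1 had 0.16 (SE 0.240) and 0.38 (SE 0.174). Srm had -0.14 (SE 0.176) and 0.06 (SE 0.138). Sms had -0.43 (SE 0.215) and 0.02 (SE 0.173), and Sat1 had -0.33 (SE 0.160) and -0.10 (SE 0.119). In the control wells Sms and Sat1 were called lower, at -0.81 and -0.66, when blastocyst plate 1, the plate with their higher control values, was left out. Amd1 was called higher there, at 0.78, when blastocyst plate 2 was left out. It was also called with all sums in 1 fit, at 0.54 (adjusted p = 0.0494, edgeR), and with wells of at least 4000 genes, at 0.60 (adjusted p = 0.034, edgeR).

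**Figure D5:**
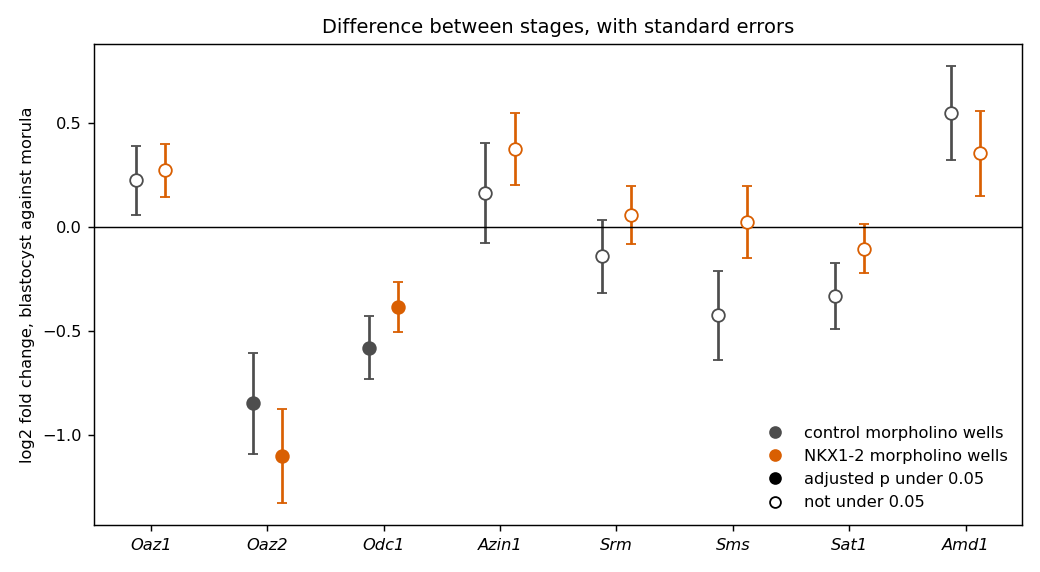
Log2 fold change of each member between blastocyst and morula in control and in NKX1-2 wells, with standard errors from the edgeR fits of 4 sums each. Filled points have an adjusted p under 0.05: Oaz2 at -0.85 and -1.10, and Odc1 at -0.58 and -0.39.

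The scale on which stages are compared moved these values. The TMM factors were 1.07 to 1.12 in the morula and 0.889 to 0.930 in the blastocyst, and with total counts as the only scaling the median of all genes shifted by -0.28 in the control wells and by -0.26 in the NKX1-2 wells. On that scale Oaz1 stood at -0.05 in the control wells, above the median of -0.29 over all genes. There 5 of 8 members were called lower, namely Oaz2, Odc1, Sat1, Sms and Srm, beside 2881 of all 9577 genes tested. Upward calls on that scale were 0 of 8 members and 1258 of the 9577 genes. With total counts, 30.4% of all calls in the control wells and 31.9% in the NKX1-2 wells were upward, against 48.1% and 47.8% with TMM. Oaz2 and Odc1 were lower in the blastocyst on both scales.

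The split of counts between a member and its copies also differed between the stages. For every 100 counts of Sms, the processed pseudogene Sms-ps, whose 31-base stretches all occur in Sms, had 5.60 to 6.97 counts in the morula sums and 45.5 to 53.4 in the blastocyst sums. For every 100 counts of Amd1, Amd2 had 20.7 to 40.1 in the morula and 4.27 to 9.48 in the blastocyst. For every 100 counts of Oaz1, Oaz1-ps had 15.0 to 17.4 in the morula and 5.75 to 8.41 in the blastocyst. The ranges of the stages did not overlap for any of these 3 pairs, and whether the copies were transcribed or the reads were placed differently cannot be told apart.

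With the copies of each member added to it, the stage values of the members with abundant copies moved. Sms had log2 fold changes of 0.05 in the control wells (adjusted p = 0.872, edgeR) and 0.55 in the NKX1-2 wells (adjusted p = 0.0123, edgeR), so that it was called higher there. Amd1 moved to 0.18 and 0.15. Oaz2 and Odc1 were called lower with the copies added as well, at -0.83 and -0.58 in the control wells and -1.06 and -0.38 in the NKX1-2 wells.

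The genes around the members were followed in a list of 33 others, which covers relatives of the antizymes and decarboxylases, arginine entry, catabolism, methionine salvage, hypusine synthesis, transport and the MYC family. Between morpholinos, 26 of them had enough counts to be tested, and 0 passed at either stage in edgeR, with 6 and 7 at an unadjusted p under 0.05. DESeq2 also called 0, with 1 at an unadjusted p under 0.05 at each stage, and it gave no adjusted p to 12 and 13 of them. The median log2 difference of the 26 was -0.01 in the morula and 0.05 in the blastocyst, beside -0.00438 and -0.00261 for all genes tested. The list includes Oaz1-ps, whose reads cannot be told apart from those of Oaz1, so that no test of it is read from this contrast. In some alternatives Myc and Arg1 were also called higher in the morula. In the blastocyst Arg2 and Mat2a were called higher without plate 1, and Apip was called lower without plate 2. These genes are named after their values had been seen.

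Between the stages, 22 of the listed genes were tested in the control wells, of which 1 rose and 7 fell, with a median log2 fold change of -0.37 beside -0.01 for all genes, of which 20.1% rose and 21.6% fell. In the NKX1-2 wells 24 were tested, of which 2 rose and 9 fell, with a median of -0.31 beside -0.02 for all genes, of which 21.9% rose and 24% fell. Arg1, the arginase that makes ornithine, the substrate of ornithine decarboxylase, fell by 2.63 (SE 0.382, adjusted p = 8.03e-06, edgeR) in the control wells, from 44.2 ± 4.61 to 7.10 ± 0.399 CPM. In the NKX1-2 wells it fell by 2.40 (SE 0.344, adjusted p = 2.39e-05, edgeR). Of the other genes of arginine and agmatine entry, Arg2 and Agmat did not pass in either set of wells.

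In the MYC family, whose founding member drives transcription of Odc1 in many cell types, Myc fell by 3.22 (SE 0.442, adjusted p = 3.82e-06, edgeR) in the control wells. Its sums held 105 and 111 counts in the control morulae and 8 and 3 in the control blastocysts. In the NKX1-2 wells Myc fell by 3.77 (SE 0.466, adjusted p = 2.39e-05, edgeR), from 160 and 275 counts to 2 and 15. Mycl fell in the NKX1-2 wells, from 12 and 18 counts to 1 and 0, and Max, the partner protein of MYC, rose there by 0.95 (SE 0.349, adjusted p = 0.0327, edgeR). Mycn was too low to be tested. The MYC and MAX binding motif CACGTG, which reads the same on both strands, was found in the 300-base promoter window, 250 bases before to 50 after the start, of 1 of the 6 members with a RefSeq window (GRCm38.p6), Sms. It was found in 7.24% of all 27025 windows, and Odc1 had no such letters in its window. Sequence outside the windows, introns among it, was not searched, so nothing is said on such motifs elsewhere at Odc1.

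In methionine salvage and the supply of S-adenosylmethionine, Mat2b, a regulatory subunit of methionine adenosyltransferase, fell by 0.94 (SE 0.249, adjusted p = 0.00397, edgeR) in the control wells and by 1.36 (SE 0.215, adjusted p = 5.74e-05, edgeR) in the NKX1-2 wells. Mtap, which recycles the by-product of Srm and Sms, rose by 0.98 (SE 0.370, adjusted p = 0.0373, edgeR) in the control wells and had 0.31 (SE 0.390) in the NKX1-2 wells, and the difference between these was not tested. Among the transporters, Atp13a2, a lysosomal polyamine exporter, fell by 1.45 and 2.12 in the control and NKX1-2 wells (SE 0.456 and 0.539, adjusted p = 0.0134 and 0.00374, edgeR). Its relative Atp13a3 rose by 0.60 in the NKX1-2 wells (SE 0.171, adjusted p = 0.00847, edgeR) and had 0.31 (SE 0.213) in the control wells. Sat2, a relative of Sat1, fell in both sets of wells, from 24 and 13 counts to 0 and 2 in the control wells and from 19 and 27 to 2 and 1 in the NKX1-2 wells. Of the hypusine genes, which use spermidine to modify the translation factor Eif5a, Dhps fell by 0.59 in the NKX1-2 wells (SE 0.214, adjusted p = 0.0305, edgeR) and Eif5a did not pass in either. The copies Amd2 and Oaz1-ps fell in both sets of wells, by 2.12 and 0.73 in the control wells and by 1.40 and 0.97 in the NKX1-2 wells, with the doubt about read placement given above. Myc passed in all 15 alternatives in both sets of wells, and Arg1 and Mat2b in 15 of 15 in the NKX1-2 wells and in 14 and 13 in the control wells. Of the upward calls, Mtap passed in 5 of 14 alternatives, Max in 6 of 15 and Atp13a3 in 10 of 15, and each of these 3 was lost when either blastocyst plate was left out. Dhps passed in 9 of 15 and was lost in the same way, and so was Mycl, which passed in 9 of 12. The call of Atp13a2 in the NKX1-2 wells, which passed in 10 of 14, was also lost without either blastocyst plate, without morula plate 1 and with DESeq2, and its call in the control wells passed in 11 of 15. The call of Oaz1-ps in the control wells passed in 10 of 15.

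The genes whose log2 CPM followed Oaz1 most closely over the 8 sums, among 10872 others, were Cops9 (Pearson r = 0.966), D230025D16Rik (0.958), Tmsb4x (0.956), Osgin2 (0.955) and Kat6b (0.955). For Odc1 they included Pdcd7 (0.993), Itpka (0.981), Ccdc117 (0.974) and Pih1d1 (0.973). These values are a description over 8 sums that share 4 plates, and the highest of so many genes lie near 1 by selection. No gene was among the closest 5 of both Oaz1 and Odc1.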

How the data were processed

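The authors deposited counts per gene and well barcode, which are whole numbers without normalization, and a table, the same for all plates, that gives the morpholino of each of 96 barcodes. Per the labels' protocols, RNA was released with a detergent and a TruSeq library made from captured polyA RNA, although 10x Genomics is also named in the descriptions. The submitters' processing notes list TopHat2, GRCm38 and mm10. How counting was done, with or without strand and of reads or molecules, is not given in the sources used here.

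Wells in which 2000 or more genes were detected entered the sums, which were taken per plate and morpholino. In the morula plates 344 neighbouring genes, from U2af1 to V1rg10, had no count, and they were left out of the fits; no member is among them. Levels are CPM on library sizes scaled by TMM, with the SD over 2 plates; levels of single wells are CPM of the well's total. The edgeR 4.0.16 quasi-likelihood test (limma 3.58.1, R 4.3.3) was used after filterByExpr. Morpholinos were compared in 1 fit of the 8 sums with plate as a block, stages in fits of 4 sums per morpholino, with Benjamini-Hochberg adjusted p under 0.05 as the threshold. The same plate's sums deviated together at r = 0.257 in the morula and -0.000704 in the blastocyst. Differences within a plate are of log2 CPM with a prior count of 2. Alternatives included DESeq2 1.42.0. The fits were tested on simulated data.

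Symbols of 54510 of 55453 genes (98.3%) matched GENCODE M21, which gave lengths, positions and shared 31-base stretches. Copies were genes holding at least 5% of a member's stretches, and not all of them are near-identical copies. For Azin1 the only such gene was the overlapping antisense gene Gm49077. For Odc1 they included the protein-coding AW146154, at 11.4% of the stretches, and Rps7-ps2, at 12.1%. Wells were classed by Xist and by Eif2s3y, Ddx3y, Kdm5d and Uty. Sums and levels were made in Python 3.11.15 (pandas 2.3.3, numpy 2.4.6, scipy 1.17.1) and figures with matplotlib 3.10.9. The members, the lists and the naming rule (all members, the listed genes that passed, at most 4 per list and comparison, and the 5 genes most like Oaz1 and Odc1) were chosen with earlier results of these data known. A single one of the genes most like Odc1 is not reported here.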

Additional observations from a re-analysis of the deposited data

Results flagged for a closer look

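Sms was lower with the NKX1-2 morpholino in both morula plates but not in the blastocyst plates. Its log2 difference between the NKX1-2 and the control sum was -0.40 and -0.26 at the morula stage, and 0.022 and 0.26 at the blastocyst stage. Blastocyst plate 1 was thus near 0, and an opposite direction rests on blastocyst plate 2. The difference between the stages was not tested. Wells with Xist and no Y-linked count numbered 25 with the control and 10 with the NKX1-2 morpholino in morula plate 1, 27 and 23 in morula plate 2, 15 and 35 in blastocyst plate 1 and 6 and 20 in blastocyst plate 2. Within these wells alone the log2 difference of Sms was -0.01 in the morula and -0.06 in the blastocyst.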

How the results depend on the processing

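With 2 plates per group and 43 to 59 Oaz2 counts per blastocyst sum, depth limits the scarce members most. The log2 difference of Oaz1 between morpholinos was 0.50 to 0.68 in the morula and 0.55 to 0.73 in the blastocyst over 15 alternatives each, the highest blastocyst value, 0.73, coming from wells with Xist and no Y-linked count. With no replicate block, that is, without the plate in the design, it was 0.57 and 0.63. No test of these values is given, since the contrast chose the members. With the replicate number as a replicate block, Oaz2 and Odc1 stood at -0.85 and -0.59 in the control wells and -1.11 and -0.39 in the NKX1-2 wells, and the members called between the stages did not change; same-numbered plates shared only a number (r = 0.0251 and -0.00201). The total of genes called ranged from 8 to 838 (60 as reported) and from 14 to 635 (79) for the morpholinos in the morula and blastocyst, and from 1602 to 4363 (3993) and 2266 to 5185 (4690) for the stages in control and NKX1-2 wells.

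Between the stages in the control wells, 1735 genes rose and 2601 fell of 25681 with no filter on low counts. These were 1258 and 2881 of 9577 with total counts, and 755 and 847 of 7024 with Xist wells only. In the NKX1-2 wells 1439 rose and 1559 fell of 10221 with DESeq2, and 1275 and 1409 of 7297 with Xist wells only. Of 10221 genes there, 1548 rose and 3312 fell with total counts, and 2243 and 2448 with copies added. The number of members called between the stages was 2 in each set of wells. In the control wells it was 4 with no filter on low counts, 5 with total counts as the only scaling and 1 with Xist wells only. In the NKX1-2 wells it was 1 with DESeq2 and 1 with Xist wells only. It was 3 there with total counts, which added Sat1, and 3 with copies added, which added Sms. Leaving out a plate gave 1 to 4 and 1 to 2. Of the other listed genes, 0 were called between morpholinos in the morula, against 2 with no filter and 3 with plates of the stage alone. The number was 1 with RLE, 1 with wells of at least 4000 genes, and 3 when either blastocyst plate was left out. In the blastocyst it was above 0 only when a blastocyst plate was left out. Oaz1-ps was called in 6 of the 15 morula alternatives and is counted in each of these morula values above 0. With RLE and with wells of at least 4000 genes it was the only listed gene called, and no test of it is read. Between stages, 8 and 11 were called in control and NKX1-2 wells, against 4 and 6 with DESeq2, 2 and 4 with Xist wells only, and 3 to 10 and 4 to 10 with a plate left out.

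Stage values of Oaz1, Azin1, Srm and Sms, all of them uncalled, changed sign. With total counts, Oaz1 and Azin1 stood at -0.054 and -0.12 in the control wells, and Srm and Sms at -0.20 and -0.24 in the NKX1-2 wells. With Xist wells only, Srm stood at 0.36 in the control wells and Sms at -0.14 in the NKX1-2 wells. With copies added, Sms stood at 0.049 in the control wells, against -0.43 without them, and with no filter on low counts, Srm and Sms stood at -0.055 and -0.091 in the NKX1-2 wells. Leaving out a plate gave Azin1 -0.14 to 0.48 in the control wells, and Srm -0.023 to 0.15 and Sms -0.21 to 0.24 in the NKX1-2 wells. The cause was not tested. Without the well with most of its counts, 6 of the mean levels moved by more than their SD over plates, to 67.3 CPM for Amd1, 96.6 for Azin1, 31.8 for Oaz2 (blastocyst) in NKX1-2 wells, and 86.1 for Oaz2, 1752 for Sat1 and 275.9 for Srm (blastocyst) in control wells, the others being in the morula.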
